A study of Mus musculus with 3 samples.

Results

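Resident-side alveolar macrophages were analysed in the lungs of 3 irradiated mice, as 555 of 19622 cells. A cell was taken where at least 3 of Chil3, Marco, Siglecf, Plet1, Atp6v0d2, Abcg1 and Lpl were above 0, where Cd3e, Cd79a, Epcam and Pecam1 were all at 0, and where the mean log value of Ear1, Krt79 and Cidec was at least that of Gpnmb, Ctsk and Mfge8. The cells that met the first 2 conditions but not the last, led by Gpnmb, Ctsk and Mfge8, are called the foamy side here and number 1235. The members were thus chosen by their own measured values of these 17 genes, whose levels are descriptions and not results.

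Female C57BL/6J mice of 8 to 9 weeks received 13 Gy to the thorax, and the lungs were dissociated 5 months later. The CONV mouse was irradiated at the conventional dose rate and the FLASH mouse at an ultra-high dose rate, both without the drug. The CONV AsiDNA mouse was irradiated at the conventional dose rate after AsiDNA, a short double-stranded oligonucleotide that mimics a broken DNA end, at 100 mg/kg on each of 2 days and 200 mg/kg on the day of irradiation. Each condition is 1 mouse and 1 library, all 3 mice were irradiated, and the control libraries were not analysed here. Differences between libraries therefore have no replicate check and carry no test, and a difference between conditions cannot be told apart from a difference between mice or libraries.

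Alveolar macrophages live in the air spaces, where they clear inhaled particles and take up and degrade used surfactant. Their identity depends on GM-CSF from alveolar type 2 cells, on TGF-beta and on the nuclear receptor PPARg, which drives genes of lipid handling. Ear1 encodes an eosinophil-associated ribonuclease, Krt79 a keratin and Cidec a lipid droplet protein. After injury, resident cells renew themselves by division or are joined by cells that derive from monocytes.

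Every deposited value is the natural log of a whole number plus 1, and this whole number is called the adjusted count. The members held a median of 5088 adjusted counts in CONV against 4909 in CONV AsiDNA and 4997 in FLASH, with 3760 to 6111 per cell, and a median of 2206, 2188 and 2227 genes above 0. Levels are given as adjusted CPM, in which the adjusted counts of a gene, summed over the members, are scaled to their total as in ordinary CPM. A ratio between libraries is the log2 ratio of adjusted CPM plus 10, and a gene is past 2-fold where it is 1 or more away from 0. Ranges in parentheses after a share are exact 95% limits by the method of Clopper and Pearson and take in cell sampling alone. The totals per cell lie in a narrow range, the step that set them is not named, and an exact 0 is reported as listed at 0. Rps19, a ribosomal protein gene, was above 0 in 21.4% of the members of CONV, 25.1% of those of CONV AsiDNA and 4.83% of those of FLASH, although its level was 3022 to 3660 adjusted CPM in the cells that did not meet the alveolar condition. A gene listed at 0 is therefore not read as absent. Where 3 values follow each other without names they are those of CONV, CONV AsiDNA and FLASH, and where 2 ratios or medians do, they are CONV over CONV AsiDNA and CONV over FLASH. The libraries shared 16, 9 and 17 cell barcodes in their 3 pairings.

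The rule found 173 members in CONV against 175 in CONV AsiDNA and 207 in FLASH. They were 2.715% of the CONV cells (2.33 to 3.144), 2.506% of the CONV AsiDNA cells (2.152 to 2.9) and 3.303% of the FLASH cells (2.874 to 3.776). The 3 shares were near each other and their intervals overlapped. The foamy side differed more and held 881 cells in CONV against 216 in CONV AsiDNA and 138 in FLASH. Of the cells that met the alveolar and the zero conditions, the members were 16.41% in CONV against 44.76% in CONV AsiDNA and 60% in FLASH, and these intervals, 14.23 to 18.79, 39.76 to 49.84 and 54.62 to 65.21, were separate.

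The Epcam condition acted on the libraries very unequally. Epcam encodes a cell adhesion molecule best known from epithelial cells, and it was above 0 in 1 of 1056 cells that met the alveolar condition in CONV, in 289 of 680 in CONV AsiDNA (42.5%, 38.75 to 46.31) and in 151 of 498 in FLASH (30.32%, 26.31 to 34.57). Among all remaining lung cells Epcam was found at like shares, 12.11% in CONV against 13.03% in CONV AsiDNA and 12.22% in FLASH. The excluded cells on the resident side carried the alveolar macrophage genes of the members. Chil3 was above 0 in 100% of them, in 219 cells of CONV AsiDNA and 138 of FLASH, Ear1 in 86.76% and 92.75%, and Sftpc, the surfactant gene of alveolar type 2 cells, in 0.4566% and 2.174%. Other genes known from epithelial cells, chosen after their values were seen, were split in the resident-side cells taken without the Epcam condition. Cdh1, which encodes E-cadherin, was above 0 in 1.156%, 22.34% and 13.33% of these cells in CONV, CONV AsiDNA and FLASH, and the keratin gene Krt19 in 12.14%, 76.4% and 82.32%, whereas the keratin genes Krt8 and Krt18 were above 0 in at most 1.159% in any library.

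Without the Epcam condition the resident side held 173, 394 and 345 cells, or 2.715%, 5.642% (5.113 to 6.209) and 5.505% (4.953 to 6.099) of the libraries. With the Epcam condition kept and ties left out, it held 107, 151 and 199 cells, or 1.679%, 2.162% and 3.175%. The near-equal counts of the rule as given thus rest on both the Epcam condition and the ties. Of 9 genes compared, the excluded cells differed from the members by over 2-fold in Spp1 and Marco. Spp1, which encodes osteopontin, had 2566 adjusted CPM in the excluded CONV AsiDNA cells against 7260 in the members, and 1020 against 6442 in FLASH. Marco, a scavenger receptor, had 48.1 against 254.1 in CONV AsiDNA and 452.1 against 986.8 in FLASH.

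**Figure D1:**
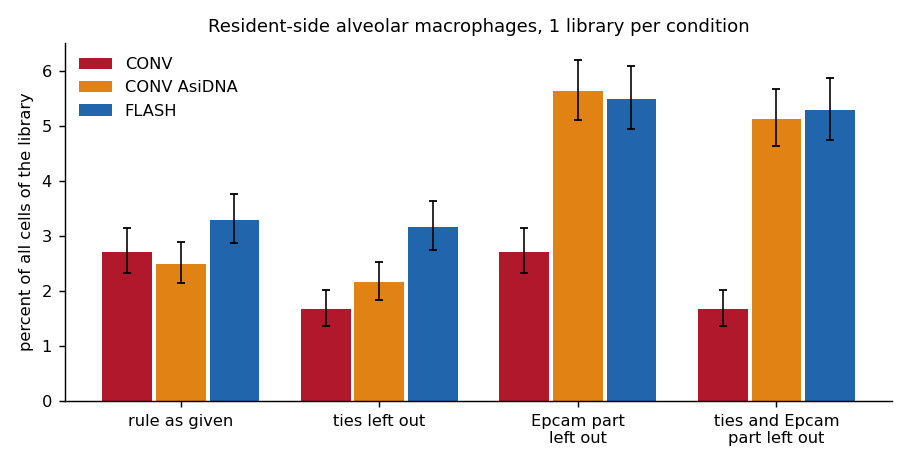
Resident-side alveolar macrophages as a percent of all cells of a library (vertical axis) under the rule as given and with ties, the Epcam condition or both left out (horizontal axis). Bars are the 3 libraries, 1 per condition, and error bars are exact 95% intervals over cells. The shares are close under the rule as given, while without the Epcam condition CONV stays at 2.715% and the other libraries lie at 5.642% and 5.505%.

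The CONV members sat closest to the boundary of the rule. The median difference between the mean log values of the resident and the foamy genes was 0.135 in CONV against 0.537 in CONV AsiDNA and 0.732 in FLASH, and the highest was 1.708, 2.221 and 2.058. A tie, in most cases with all 6 genes at 0, made 66 of the CONV members (38.15%), 24 of the CONV AsiDNA members (13.71%) and 8 of the FLASH members (3.865%). Just inside the boundary, within 0.1 and without ties, 14 CONV members had a median resident value of 0.8271 against a foamy value of 0.7804. Just outside, 12 CONV cells had 0.7128 against 0.8087.

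The tied cells were not alike in the libraries. Of the 55 CONV cells with all 6 genes at 0, 98.18% had Ear2, 78.18% had Chil3 and 1.818% had C1qa above 0. Of the 13 such cells in CONV AsiDNA, 76.92% had C1qa, a complement gene typical of interstitial macrophages, and 23.08% had Chil3. Of the 5 in FLASH, 80% had C1qa and 20% had Chil3. The label is therefore not borne out for most members of CONV AsiDNA and FLASH with all 6 genes at 0. In the members that were not tied, C1qa was listed at 0 in every library. The rule itself put these members on the resident side, so they cannot check the label. Among those of CONV, Krt79 was above 0 in 37.38%, Cidec in 30.84% and Siglecf in 42.99%.

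**Figure D2:**
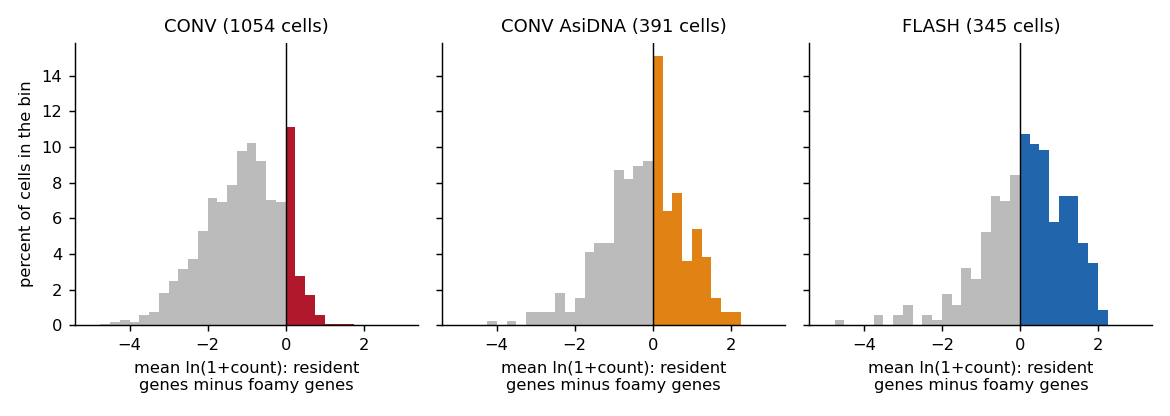
Percent of the alveolar cells of each library (vertical axis) by the difference between the mean log values of Ear1, Krt79 and Cidec and of Gpnmb, Ctsk and Mfge8 (horizontal axis, natural log units, bins of 0.25). Coloured bars at or right of 0 are the members and grey bars the foamy side. The members of CONV crowd at 0, with a median of 0.135, while those of FLASH spread to 2.058.

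The resident genes marked fewer members, and at lower levels, in CONV. Ear1 had 632.5 adjusted CPM in the CONV members, 1471 in those of CONV AsiDNA and 1959 in those of FLASH, and was above 0 in 65.32%, 83.43% and 89.37% of the members. Krt79 had 127.6, 630.1 and 851.3 adjusted CPM and was above 0 in 24.86%, 68.0% and 81.16%. Cidec had 79.35, 463.4 and 486.0 and was above 0 in 19.65%, 81.14% and 90.34%. All 3 genes together were above 0 in 9.827% of the CONV members (5.829 to 15.27), in 53.71% of the CONV AsiDNA members (46.03 to 61.27) and in 70.05% of the FLASH members (63.31 to 76.2). The low CONV values rest in part on its 55 members with all 6 genes at 0. In the members that were not tied, Ear1 was above 0 in 95.33%, 92.05% and 91.96%, so CONV was no longer lowest by share. By level it still was, with 962.1, 1684 and 2012 adjusted CPM. In the same cells Krt79 was above 0 in 37.38%, 75.5% and 83.92% and Cidec in 30.84%, 88.08% and 92.96%.

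The genes of the alveolar condition varied in how far the libraries differed. The chitinase-like gene Chil3 was above 0 in 90.75% to 97.1% of the members, and lipoprotein lipase, Lpl, in 94.22% to 100%. Siglecf, the sialic acid-binding lectin used to identify alveolar macrophages, was above 0 in 32.37% (25.47 to 39.89), 59.43% (51.76 to 66.77) and 72.46% (65.84 to 78.43) of the members. Marco was above 0 in 8.092%, 17.14% and 43.0%. The cholesterol exporter Abcg1 had 1164, 1985 and 2254 adjusted CPM. The foamy gene Ctsk, which encodes cathepsin K, was also lowest in the CONV members, with 418.6, 1060 and 1111 adjusted CPM. The rule holds the foamy mean of a member at or below its resident mean, which was low in CONV. On the foamy side Ctsk was level, with 3002, 3019 and 3076 adjusted CPM. After random thinning of every cell to 1000 adjusted counts, Siglecf was above 0 in 8.671%, 17.71% and 27.05% and Marco in 4.624%, 9.143% and 29.47%, in the same order, and no member was too shallow. Among 1179 to 1598 B cells marked by Cd79a, with a median of 2830 to 3056 adjusted counts, Ear1, Krt79 and Marco were listed at 0 and Cidec and Siglecf were above 0 in at most 0.08482%.

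**Figure D3:**
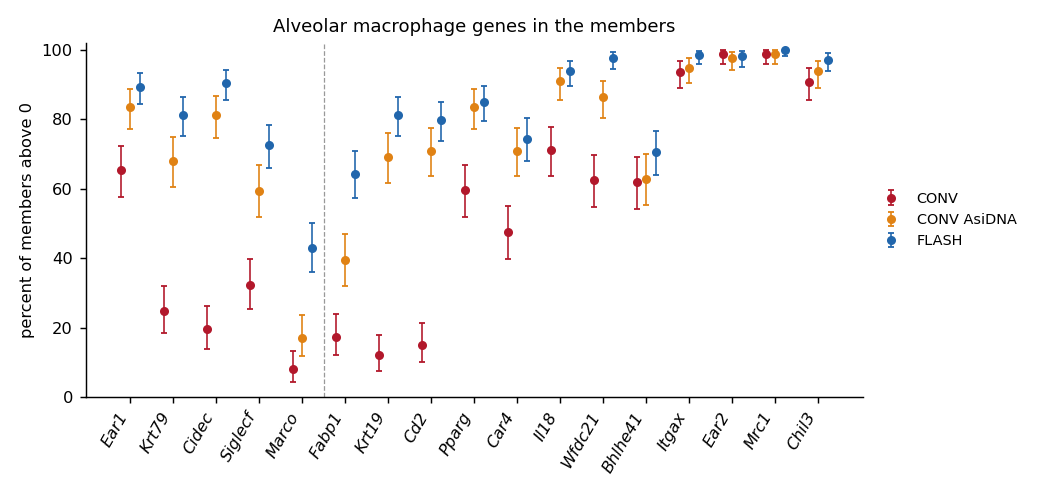
Percent of the members above 0 (vertical axis) for 17 alveolar macrophage genes (horizontal axis), with points for the 3 libraries and exact 95% intervals over cells. Genes left of the dashed line and Chil3 belong to the rule and are descriptions. CONV is lowest for Krt19 and Cd2, at 12.14% and 15.03%, while Ear2 and Mrc1 are at 97.71% or more in all libraries.

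Outside the rule, 7674 genes with at least 20 adjusted counts over all members were compared. CONV was past 2-fold above CONV AsiDNA in 165 genes (2.15%) and below it in 248 (3.23%). It was past 2-fold above FLASH in 224 genes (2.92%) and below it in 260 (3.39%). CONV AsiDNA was past 2-fold above FLASH in 78 genes (1.02%) and below it in 39 (0.508%). More genes were thus past 2-fold in the comparisons with CONV than between CONV AsiDNA and FLASH, by a margin that narrowed with 1 added in place of 10, where 371 and 648, 433 and 638, and 300 and 180 genes were above and below in the 3 comparisons. The comparisons share libraries and are given side by side. The median log2 ratio over all genes was -0.08 where CONV was set against CONV AsiDNA, -0.06 against FLASH, and 0.01 for CONV AsiDNA over FLASH. When scaled by the median gene ratio, the split turned, with 200 genes above and 193 below in CONV against CONV AsiDNA and 259 above and 222 below against FLASH.

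A few markers of mature alveolar macrophages were far lower in CONV. Of 26 identity genes outside the rule, none was past 2-fold above either other library in CONV, while 3 were below CONV AsiDNA and 4 below FLASH, with list medians of -0.33 and -0.37. Krt19, a keratin gene, had 41.4 adjusted CPM in CONV against 481.1 in CONV AsiDNA and 536.1 in FLASH and was above 0 in 12.14% (7.673 to 17.96), 69.14% (61.73 to 75.89) and 81.16% (75.16 to 86.25) of the members. Cd2, an adhesion molecule also found on T cells, had 41.4, 300.3 and 286.7 adjusted CPM and was above 0 in 15.03%, 70.86% and 79.71%. Both genes were far lower in CONV and close in the other libraries, with log2 ratios of CONV over FLASH of -3.41 and -2.53. Fabp1, a fatty acid-binding protein gene, had 88.55, 270.7 and 489.0 adjusted CPM, with log2 ratios of -1.51 and -2.34. Serpinb1a, a protease inhibitor gene, had 81.65, 140.7 and 220.9 adjusted CPM and passed 2-fold against FLASH with -1.33.

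Other identity genes did not separate the libraries. Ear2, a relative of Ear1, had 2285, 2065 and 2524 adjusted CPM. The integrin gene Itgax had 845.2, 851.1 and 912.1, the chemokine gene Ccl6 9126, 8950 and 10450, and lysozyme, Lyz2, 24180, 19830 and 18300. CONV was the lowest library in 16 of the 26 genes, the highest in 7 and between in 3. Counts of this kind, here and for the lists below, were not made over all genes compared and so have no background. The CONV members thus held the abundant alveolar macrophage transcripts and differed in a subset. Without ties the medians came to -0.20 and -0.16, and without the Epcam condition to -0.35 and -0.40.

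The receptors and factors that set the alveolar macrophage programme had medians below 0 as well. Of 20 genes compared on the GM-CSF, TGF-beta and PPARg axis, 2 were past 2-fold below in CONV against CONV AsiDNA and none above, and 2 below and 1 above against FLASH, with medians of -0.27 and -0.37. Pparg had 189.7 adjusted CPM in CONV against 370.0 in CONV AsiDNA and 354.4 in FLASH and was above 0 in 59.54%, 83.43% and 85.02%, with log2 ratios of -0.93 and -0.87. Egr2, a transcription factor gene, had 112.7, 198.6 and 325.0 adjusted CPM, with ratios of -0.77 and -1.45. Car4, which encodes a carbonic anhydrase, had 661.2, 1227 and 1262, with ratios of -0.88 and -0.92. The GM-CSF receptor genes were near level. Csf2ra had 458.8, 398.4 and 392.7 adjusted CPM and Csf2rb 690.0, 815.6 and 929.8. These genes were chosen partly after their values were seen.

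Genes of surfactant lipid uptake and breakdown lay in both directions. Of 28 compared, 2 were past 2-fold above and 4 below in CONV against CONV AsiDNA, and 2 above and 6 below against FLASH, with medians of -0.21 and -0.17. The fatty acid transporter gene Cd36 had 35.65, 131.2 and 155.1 adjusted CPM, and the cholesterol exporter gene Abca1 had 121.9, 322.7 and 335.8, both low in CONV. The scavenger receptor gene Msr1 had 257.6, 108.8 and 60.87 and was above 0 in 70.52% of the CONV members, 33.14% and 22.71%, so it was high in CONV. Fabp5, another fatty acid-binding protein gene, had 1552, 912.6 and 794.3 adjusted CPM. Lipa, the lysosomal acid lipase gene, had 1390, 925.6 and 1108. Apoe had 69.0, 333.3 and 307.3 adjusted CPM, but it was above 0 in 0.578%, 3.429% and 1.932% of the members only, and it was listed at 0 in all members that were not tied.

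Lipid-associated macrophage genes showed no common direction in the members as the rule took them. Of 18 compared, CONV was the highest library in 9 and the lowest in 8, with medians of 0.19 and 0.25. Without ties the medians were 0.41 and 0.41, and with ties and the Epcam condition both left out 0.51 and 0.43. With a difference of at least 0.5 in favour of the resident genes they were 0.16 and 0.22. Trem2, a lipid receptor gene, had 450.8 adjusted CPM in CONV against 166.7 in CONV AsiDNA and 188.5 in FLASH, with log2 ratios of 1.38 and 1.21. Syngr1 had 60.95, 9.457 and 10.8, with ratios of 1.87 and 1.77. Spp1 varied widely within each library. It was above 0 in 60.69% of the CONV members with 10900 adjusted CPM and up to 635 adjusted counts in a cell, in 70.86% of the CONV AsiDNA members with 7260 and in 77.29% of the FLASH members with 6442. Vim and Lgals3, by contrast, were low in CONV, with 2066, 3472 and 3789 and with 1155, 1732 and 1975 adjusted CPM.

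Pattern recognition and scavenger receptor genes were level as a group, with medians of 0.04 and 0.02 over 20 genes. The phosphatidylserine receptor gene Axl had 1224, 1039 and 1139 adjusted CPM and Mertk, of the same family, 554.3, 492.9 and 628.4. The inhibitory Fc receptor gene Fcgr2b was higher in CONV, with 809.6, 483.5 and 369.2.

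Lysosomal genes lay slightly higher in CONV, with 1 of 23 past 2-fold against each other library. CONV was the highest library in 20 of 23 genes. The medians were 0.29 and 0.22, against -0.08 and -0.06 over all genes compared. Psap, the saposin precursor gene, had 8875, 5293 and 5083 adjusted CPM and Ctss, the cathepsin S gene, 7702, 4070 and 3986. Ctsd, the cathepsin D gene, had 8651, 7005 and 6894. Where members were limited to a difference of at least 0.5 in favour of the resident genes, a range shared by the libraries, the lysosomal medians came to 0.08 and 0.03. This limit was chosen after the data were seen, and it left 27, 91 and 135 members.

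Among antioxidant and iron genes, CONV was the highest library in 15 of 19, with medians of 0.30 and 0.22. Slc7a11, the cystine transporter gene, had 259.9 adjusted CPM in CONV against 57.92 in CONV AsiDNA and 83.46 in FLASH, with ratios of 1.99 and 1.53. The iron exporter gene Slc40a1 was low, with 26.45, 3.546 and 2.946 adjusted CPM. Fth1, the ferritin heavy chain gene, had 19050, 13870 and 14460. The 5 genes compared of the RNase and chitinase-like family had medians of 0.66 and 1.30, which came to 0.43 and 0.65 with no filter on sums. Rnaset2a had 87.4, 46.1 and 25.53 adjusted CPM and Rnase4 86.25, 55.56 and 17.67, while Ear2 differed little, as given above. Rnaset2a and Rnaset2b are near-identical copies, and how reads were shared between them is uncertain.

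MHC class II genes, which present peptides to T cells, had positive medians in the CONV members as the rule took them, but few passed 2-fold, with 0 of 9 above CONV AsiDNA and 2 of 9 above FLASH. Cd74, the invariant chain gene, had 7262, 6096 and 4680 adjusted CPM, H2-Aa 2539, 1817 and 1368, and H2-Ab1 1590, 1078 and 671.6. The medians over 9 genes were 0.44 and 0.63, and 7 of the 9 were highest in CONV. This difference moved with the cells that the rule let in. Cd74 had 11050 adjusted CPM in the CONV members with all 6 genes at 0 and 5754 in those that were not tied. With ties and the Epcam condition both left out, the medians were -0.02 and 0.11, and with a difference of at least 0.5 they were 0.85 and 0.95. The costimulatory gene Cd80 went the other way, with 25.3, 40.19 and 53.02 adjusted CPM. Of 8 interferon response genes compared, CONV was highest in 6, with medians of 0.10 and 0.51. Gbp2, an interferon-induced GTPase gene, had 75.9, 36.64 and 45.17 adjusted CPM.

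Inflammatory cytokine and chemokine genes were split. Of 19 compared, 3 were past 2-fold above and 7 below in CONV against CONV AsiDNA, and 4 above and 6 below against FLASH, with medians of -0.47 and -0.40. Il1b was listed at 0 in all CONV members and was above 0 in 13.14% of the members with AsiDNA and in 15.94% of those of FLASH, with 161.9 and 113.9 adjusted CPM. Cxcl2, a neutrophil attractant, had 471.5, 994.1 and 1179 adjusted CPM. Tnf was above 0 in 5.202%, 21.14% and 30.92%. Against these, Il6 was above 0 in 4.624% of the CONV members, 0.5714% of the CONV AsiDNA members and none of the FLASH members, and Cxcl16 had 96.59, 33.1 and 22.58 adjusted CPM. Without ties the medians were -0.08 and -0.15, and with a difference of at least 0.5 they were -0.63 and -1.13. The immediate early genes, which tissue dissociation is known to induce, also had medians below 0, at -0.60 and -0.34 over 18 genes. In CONV 0 were past 2-fold above and 5 below against CONV AsiDNA, and 3 above and 5 below against FLASH. Jun had 39.1, 303.8 and 74.62 adjusted CPM, so it was high mainly in CONV AsiDNA. The part of the immediate early genes in the cytokine levels was not tested.

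Profibrotic and matrix genes had medians near 0, at 0.02 and 0.12 over 17 genes, with a few genes far out. Arg1, which encodes arginase 1, was above 0 in 23.7% of the CONV members (17.58 to 30.75) with 216.2 adjusted CPM, was listed at 0 in all CONV AsiDNA members and was above 0 in 0.4831% of the FLASH members. Mmp14, a membrane-bound metalloproteinase gene, had 146.0, 7.093 and 5.891 adjusted CPM. The growth factor gene Igf1 had 388.7, 140.7 and 158.1, with ratios of 1.40 and 1.25, and the fibronectin gene Fn1 had 3163, 1824 and 1753. Mmp19 lay the other way, with 434.7, 949.2 and 966.1. The ligand gene Tgfb1 was level, with 350.7, 373.5 and 353.5 adjusted CPM.

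Targets of p53, the factor that DNA damage activates, did not separate the libraries as a group, with medians of -0.18 and -0.03 over 17 genes. Cdkn1a, the cell cycle inhibitor p21, had 330.0 adjusted CPM in CONV against 469.3 in CONV AsiDNA and 412.4 in FLASH. Perp had 78.2, 170.2 and 202.3, with ratios of -1.03 and -1.27, and the death receptor gene Fas had 9.199, 30.73 and 39.27. The classical target Mdm2 was level at 69.0, 68.56 and 67.75.

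**Figure D4:**
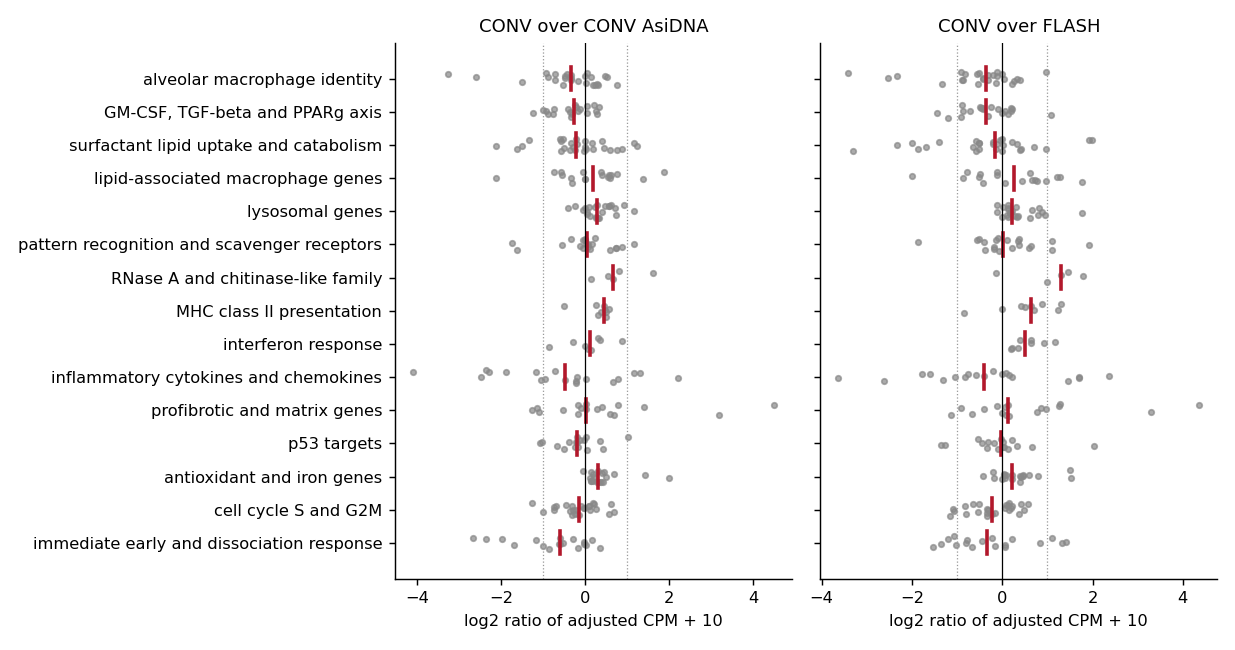
Log2 ratios of adjusted CPM plus 10 in the members for the genes of 15 lists (rows), CONV over CONV AsiDNA on the left and CONV over FLASH on the right. Each point is a gene and each red bar the median of a list, and dotted lines mark 2-fold. The identity genes lie mostly left of 0, with medians of -0.33 and -0.37, and the lysosomal genes mostly right of it, at 0.29 and 0.22.

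The genes farthest above both other libraries in CONV, outside the rule, were Mmp14, Sema4d, Basp1, H2-M2, AW112010, Qpct, Prkcb and Aldh2. Mmp14, at 14:54431612-54445364 in GRCm38, was above 0 in 45.09% of the CONV members (37.52 to 52.82), 3.429% of the CONV AsiDNA members and 1.932% of the FLASH members, with ratios of 3.19 and 3.30. Basp1, which encodes a membrane-associated signalling protein, had 305.9, 50.83 and 24.55 adjusted CPM. Sema4d, a semaphorin gene, had 112.7, 10.64 and 4.909. None of these 3 genes was above 0 in more than 10.29% of the members of the other libraries. AW112010, a transcript annotated as a long intergenic RNA, had 432.4, 86.29 and 83.46 adjusted CPM, and Aldh2, the mitochondrial aldehyde dehydrogenase gene, had 103.5, 15.37 and 18.66. Prkcb, a protein kinase C gene, was above 0 in 21.97%, 2.286% and 1.449%. H2-M2, a non-classical class I gene, was above 0 in 21.39% of the CONV and 4.571% of the CONV AsiDNA members and in 1 FLASH cell, and Qpct, the glutaminyl cyclase gene, in 24.28%, 1.714% and again 1 FLASH cell.

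The genes farthest below both others in CONV were Phlda1, Krt19, Cpne5, Cd2, Slpi, Pdlim1, Sgms2 and Acaa1b. Phlda1, at 10:111506286-111508645, had 16.1 adjusted CPM in CONV against 280.2 in CONV AsiDNA and 315.2 in FLASH and was above 0 in 5.202% (2.406 to 9.646), 49.71% (42.08 to 57.36) and 60.39% (53.37 to 67.1), with ratios of -3.47 and -3.64. Cpne5, a copine gene, had 29.9, 241.1 and 314.2. Slpi, the secretory leukocyte protease inhibitor, had 96.59, 587.5 and 604.8. That CONV stood apart in these genes follows from the ranking, while the other libraries were near each other. Pdlim1, a cytoskeletal adaptor gene, had 47.15, 277.8 and 310.3 adjusted CPM. Sgms2, a sphingomyelin synthase gene, had 6.9, 66.2 and 82.48, and Acaa1b, a peroxisomal thiolase gene, 24.15, 141.9 and 230.7.

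The 16 genes were followed through the other ways of choosing the members. Over all alternatives that changed the members, the scaling or the filter, Mmp14 over FLASH lay at or above 3.21 and Phlda1 over FLASH at or below -3.58. With at least 0.5 in favour of the resident genes, Krt19 had a ratio of CONV over FLASH of -2.46 and Basp1 of 4.19, and in that setting H2-M2 over CONV AsiDNA dropped to 0.38. Above both other libraries in CONV, 113 genes (1.473% of those compared) were past 2-fold, and 35 were called again in that setting. Below both there were 142 (1.85%), and 94 were called again. That setting itself called 110 genes above both (1.777% of those compared) and 402 below both (6.493%). Lists of single genes past 2-fold thus changed with the cells taken. The part of the small number of CONV members left in that setting was not tested. The foamy side was examined for the same 16 genes. On the foamy side, all 16 of these genes lay the same way, and 6 of the 8 high and 7 of the 8 low ones were past 2-fold against both libraries. In the cells that did not meet the alveolar condition, none of the 16 was past 2-fold against both. Of all genes past 2-fold in the members, 32.69% against CONV AsiDNA and 34.71% against FLASH were past it in the same direction on the foamy side.

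**Figure D5:**
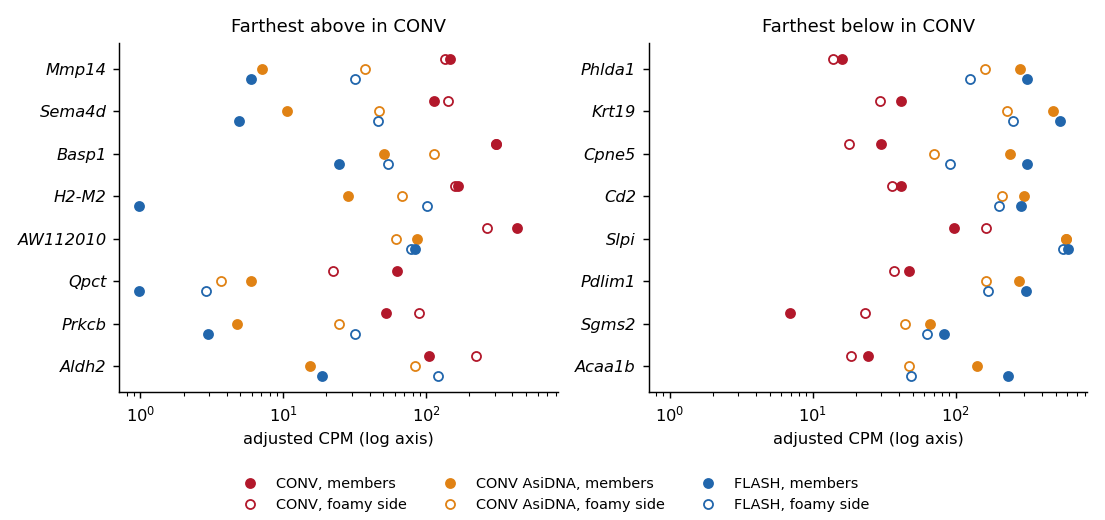
Adjusted CPM (horizontal axis, log scale) of the 8 genes farthest above (left) and the 8 farthest below (right) both other libraries in CONV. Filled points are the members and open points the foamy side of each library. Phlda1 is at 16.1 in the CONV members against 280.2 and 315.2 in the others, and its foamy side lies the same way, at 13.8 against 159.9 and 125.7.

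Between CONV AsiDNA and FLASH few of all genes were past 2-fold, 1.02% above and 0.508% below in CONV AsiDNA. Some lists held larger shares. Of 18 immediate early genes 6 were above and 0 below, with a median of 0.36. Of 19 inflammatory genes 5 were above and 1 below, and of 8 interferon response genes 2 above and 0 below. The inflammatory median was 0.16, but -0.68 with a difference of at least 0.5. The farthest above in CONV AsiDNA were S100a6, Socs3, Ifi27l2a, Rps19 and Gm42418. Socs3, a feedback inhibitor of cytokine signalling, had 66.2 adjusted CPM in CONV AsiDNA, 8.837 in FLASH and 40.25 in CONV, and the interferon-induced gene Ifi27l2a 101.7, 17.67 and 51.75 in that order. S100a6, a calcium-binding protein gene, was above 0 in 1.156%, 7.429% and 1.449% of the members. Gm42418, a locus annotated as a long intergenic RNA, had 39860 adjusted CPM in CONV AsiDNA, 10270 in FLASH and 27680 in CONV, and in the lung cells that did not meet the alveolar condition it had 20460, 864.3 and 22210 in that order. FLASH was thus low at this locus outside the members too.

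The farthest below in CONV AsiDNA were mt-Nd4, mt-Nd3, mt-Co1, Gm26917 and Cxcl3. The mitochondrial gene mt-Nd4 had 36.64 adjusted CPM in CONV AsiDNA, 1500 in FLASH and 1209 in CONV. mt-Co3 and mt-Atp6 were listed at 0 in all CONV AsiDNA members and were above 0 in 70.52% and 60.69% of the CONV and 88.89% and 69.57% of the FLASH members. The median mitochondrial share was 2.158% in CONV against 0.1805% in CONV AsiDNA and 2.059% in FLASH. In the cells that did not meet the alveolar condition mt-Nd4 was level, with 955.2 in CONV against 1013 in CONV AsiDNA and 1290 in FLASH, while the foamy side had 1224, 99.91 and 1426. mt-Nd4 was nonetheless above 0 in 5.882% of the Cd79a cells of CONV AsiDNA against 52.43% in CONV and 53.94% in FLASH. Among the cells outside the alveolar condition, mt-Co3 had 628.5, 747.8 and 2810 adjusted CPM, so CONV AsiDNA was below FLASH there too. The pattern was another one, as CONV was the lowest library in these cells. In the members CONV had 3863 adjusted CPM of mt-Co3 and FLASH 4074. Gm26917 had up to 246 adjusted counts in a FLASH cell, and Cxcl3, a chemokine gene, was above 0 in 3.429% of the members with AsiDNA and in 8.696% of those of FLASH.

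Malat1, a nuclear RNA whose share varies with cell integrity, was looked at after the data were seen. It was above 0 in 55.49%, 77.71% and 82.61% of the members, with 6349, 13420 and 13520 adjusted CPM, and so was lowest in CONV. Its part in the differences was not tested.

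Lymphocyte, stromal and granulocyte markers were at or near 0 in the members, while several monocyte and interstitial macrophage markers were not. Of 8 fibroblast and 7 basophil and mast cell markers all were listed at 0 in every library, as were 10 of 11 T and NK cell markers, with a single cell for Cd8a, and 7 of 8 endothelial markers, the exception being Car4, which alveolar macrophages express. The B cell markers were at 0 but for Ighm in 1 CONV AsiDNA cell, which gave 940.9 adjusted CPM. Among 10 alveolar type 2 markers none was above 0 in 5% of the members of a library, and the summed level was 69.0, 95.75 and 1933 adjusted CPM, in FLASH mostly from Sftpc in 0.9662% of the cells. Of 9 neutrophil markers, 2, 1 and 1 reached that share, with S100a8, S100a9 and Ly6g at 0 in all, and of 10 monocyte markers 6, 3 and 4, with Fcgr4 the highest and Ly6c2 and Plac8 at 0 in all. The summed monocyte level was 686.5, 427.9 and 403.5 adjusted CPM, and its part in the differences was not tested. Of 10 dendritic cell markers 1, 1 and 2 reached it, and of 7 club and ciliated cell markers 0, 1 and 1, the last being Tppp3. Of 14 interstitial macrophage markers, 5, 7 and 4 were above 0 in at least 5% of the members, with a summed level of 4177, 4725 and 4267 adjusted CPM. Mrc1, shared with alveolar macrophages, gave 1919, 2413 and 2815 of it, whereas C1qa was above 0 in 0.578%, 5.714% and 1.932%. Without members that had C1qa, C1qb, Sftpc or Ighm above 0, a choice made after the data were seen, 92.92% and 86.62% of the genes past 2-fold in CONV against both others, higher and lower, were called again. With those members left out, 1.609% and 1.793% of all genes compared were past 2-fold higher and lower against both.

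Dividing members were found in all libraries. A member with at least 2 of Mki67, Top2a, Birc5, Pclaf, Rrm2, Cdk1, Ccna2 and Nusap1 above 0 was counted as dividing, which held for 9 of 173 in CONV (5.202%, 2.406 to 9.646), 9 of 175 in CONV AsiDNA (5.143%, 2.378 to 9.538) and 7 of 207 in FLASH (3.382%, 1.37 to 6.843). The shares did not differ beyond their intervals. On the foamy side 1.022%, 1.852% and 2.899% were dividing, and in CONV the intervals of the sides, 2.406 to 9.646 and 0.4682 to 1.93, were separate. Without the highest 6% of Scrublet scores, which rank likely doublets, the CONV share was 0.633%, that of CONV AsiDNA 0 and that of FLASH 1.571%. Most dividing members therefore had high doublet scores, and whether they were doublets was not tested. Over 25 genes of the S and G2M phases the medians were -0.15 and -0.23, with no stable direction: they were -0.69 and -0.56 without ties and 0.31 and 0.54 with a difference of at least 0.5.

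Beside the foamy side of the same library, the members differed in lipid-associated genes, of which 8, 8 and 9 of 18 were past 2-fold below. This comparison describes cells that the rule parted by their own values. Of all 7674 genes compared, 88, 99 and 125 were past 2-fold above in the members. Past 2-fold below were 35 in CONV and 72 in CONV AsiDNA, and in FLASH fewer genes were below than above. The median log2 ratio of members over the foamy side was -0.71 in CONV against -0.52 in CONV AsiDNA and -0.85 in FLASH for the 18 lipid-associated genes, against 0.15, 0.12 and 0.15 over all genes compared. For the 9 MHC class II genes it was 1.35, 0.66 and 0.71, with 7, 3 and 2 genes past 2-fold above. The CONV members here include those with all 6 genes at 0, in which Cd74 had 11050 adjusted CPM against 5754 in the untied ones. For the 25 cell cycle genes it was 0.90, 0.66 and 0.33, with 8, 6 and 0 past 2-fold above. The comparison with the foamy side was not repeated without ties or without the highest Scrublet scores. The identity genes had 0.07, -0.01 and 0.23, so the abundant alveolar macrophage genes were shared by the sides.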

How the data were processed

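Lung cells of CONV, CONV AsiDNA and FLASH mice, 1 library each, were profiled with 10x Genomics 3′ v3.1 chemistry. The submitters' processing notes name Cell Ranger 6.0.0 and mm10, and the methods name R and Seurat. No source used here names the step that set the final scale of the values. The authors deposited natural log values, ln of 1 plus a whole number, and each was converted back to within 1e-06 of a whole number. The values are not raw counts, so no count model, counting interval or p-value was used. Another 4 tables, with 12 columns of values and the authors' own fold changes and p-values, carry other gene identifiers and were not used.

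The members, gene lists and rules were chosen with earlier results of these data known. The genes named are those of the rule, the 8 farthest each way in CONV and the 5 farthest each way between CONV AsiDNA and FLASH (above 0 in 5% of a library's members, not at 0 in any library), genes at 0 in a library, the most abundant genes, and up to 4 per list by level or difference. Other list members, Epcam, Cdh1, Krt8, Krt18 and Malat1 were picked after their values were seen. Doublets were not removed, except in an alternative. Positions are from a GENCODE annotation of GRCm38. The arithmetic of the ratios was tested on simulated Poisson counts drawn from a pooled profile of the members. These do not copy the adjusted scale or the zeros of the data, so the test does not bear on those. Scores for doublets came from Scrublet in scanpy 1.11.5, and intervals from scipy 1.17.1. The alternatives are given in the closing section. Most list members enter only through the counts and medians of their list, and some are not reported here.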

Additional observations from a re-analysis of the deposited data

How the results depend on the processing

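No paired analysis was possible because each condition is 1 library, and no replicate could be left out. The shares of resident-side cells were 1.679% in CONV without ties, and 3.766%, 4.353% and 4.42% in CONV, CONV AsiDNA and FLASH when cells were thinned to 1000 adjusted counts before the rule. Alternatives chosen after the data were seen gave 5.642% and 5.505% in CONV AsiDNA and FLASH without the Epcam condition, 1.679%, 5.141% and 5.298% without it and without ties, and 0.4237%, 1.303% and 2.154% with a difference of at least 0.5. With 1 added to adjusted CPM in place of 10, CONV was above CONV AsiDNA in 371 genes and below in 648, above FLASH in 433 and below in 638, and CONV AsiDNA was above FLASH in 300 and below in 180. With a sum of at least 50, CONV was above CONV AsiDNA in 106 genes, and CONV AsiDNA above FLASH in 48 and below in 23. Without ties and the Epcam condition, CONV was below CONV AsiDNA in 389 genes and CONV AsiDNA above FLASH in 44. With a difference of at least 0.5, CONV was below CONV AsiDNA in 569 and below FLASH in 537. Dividing shares fell to 0.6329% in CONV and 0.0% in CONV AsiDNA without the highest 6% of Scrublet scores, and the CONV share was 11.11% with a difference of at least 0.5. The median of the RNase and chitinase-like family for CONV AsiDNA over FLASH turned from 0.64 to -0.0636 with no filter on sums, which brings in more genes. Of the values for single named genes, 769 moved little and 11 moved under the alternatives set out at the start, and 299 and 13 under those added later. With 1 mouse a condition, the spread between mice is unknown, and the conversion of reads to adjusted counts limits what a 0 means.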
